A study of Xenopus laevis with 16 samples.

Results

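The genes tlx3, drgx and pou4f1 encode homeodomain transcription factors of excitatory and sensory neurons, and their transcripts were followed in explants driven toward neurons by different basic helix-loop-helix (bHLH) factors. The frog Xenopus laevis carries an L and an S copy (homeolog) of many genes, and the rows taken were those whose symbol, without the L or S suffix, is tlx3, drgx or pou4f1. This gave 6 of the 45038 genes listed, namely tlx3.L, tlx3.S, drgx.L, drgx.S, pou4f1.L and pou4f1.S. All 6 passed the filter on low counts and were tested.

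The samples were animal caps, pieces of blastula ectoderm that form epidermis when left alone. Into 2-cell embryos went 20 pg of an mRNA, injected into both blastomeres, which encoded GR-neurog2, ptf1a-GR or a changed ptf1a-GR, and the explants were kept in dexamethasone for 6 h or 25 h. GR is the hormone-binding part of the glucocorticoid receptor, so the fused factor becomes active once dexamethasone is added. The changed construct carries W224A and W242A and is called the mutant here. The control caps, for which no injected mRNA is named, were kept in dexamethasone for the same times. The 16 libraries formed 8 groups of 2, with total counts of 31436437 to 228346016 per library. At 6 h ptf1a.L stood at 183 ± 2.28 CPM (counts scaled to the size of the library) in Ptf1a caps and 149 ± 4.19 CPM in mutant caps, against 0.174 ± 0.0183 CPM in control caps, and neurog2.L stood at 175 ± 23.7 CPM in Neurog2 caps (SD, n = 2). These levels go with the labels, although counts do not separate injected from embryonic transcripts. Whether the libraries came from different batches of embryos is not stated, so each p-value measures the spread between these samples, which may be technical.

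As background, Tlx3 is a selector of glutamatergic over GABAergic identity in the dorsal spinal cord of the mouse. Drgx, also called Drg11 or Prrxl1, is a paired-like homeodomain factor that depends on Tlx genes in the mouse dorsal horn and is needed for nociceptive circuits there. Pou4f1, also called Brn3a, is a POU homeodomain factor of sensory neurons and of some dorsal interneurons. Ptf1a acts with Rbpj and directs dorsal progenitors to inhibitory fates, and in the mouse it is known to hold down Tlx3. Tryptophans in the carboxyl part of mouse Ptf1a are needed to bind Rbpj. Neurog2 is a proneural factor that drives general neuronal differentiation.

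In genome build 9.1 tlx3.L lies on chromosome 3L (24958537 to 24964085, minus strand) and tlx3.S on 3S (113467985 to 113476499, plus strand), each with 3 coding segments. The gene drgx.L lies on 7L (56944362 to 56971701, minus strand) and drgx.S on 7S (36903443 to 36931467, plus strand), each with 6 coding segments. The gene pou4f1.L lies on 2L (125325139 to 125328937, plus strand) and pou4f1.S on 2S (107586717 to 107590274, plus strand), each with 2 coding segments. No annotated gene overlaps any of them. The summed exon length was 8450 bp for drgx.L and 2494 bp for drgx.S, although their coding lengths were 789 and 786 bp. Levels per kilobase of these 2 copies therefore rest on very different annotated lengths. Of 12 annotated neighbours 11 were tested. With Ptf1a against control caps at 25 h 1 of 11 was called higher, where 11.9% of all genes tested were called higher. This was rnf219.L, next to pou4f1.L (log2 fold change 2.58 ± 0.515 SE, adjusted p = 0.00446, edgeR), which was also called higher with Ptf1a than with the mutant (adjusted p = 0.0136) and with Neurog2 (adjusted p = 0.0439). With the mutant against control caps at 6 h admp2.S, next to drgx.S, was called higher (2.77 ± 0.530, adjusted p = 0.0379), where 0.602% of all genes tested were.

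At 25 h all 6 copies were higher in Neurog2 caps than in control caps of the same time. The copies of tlx3 reached the highest CPM of the set, in Neurog2 replicate 2. In Neurog2 replicate 1 drgx.L stood highest, at 24.0 CPM, and CPM does not allow for the length of a gene. In Neurog2 caps tlx3.L stood at 21.6 and 96.5 CPM, in mutant caps at 27.7 and 7.04 CPM and in Ptf1a caps at 0.584 and 0.592 CPM, against 0.0752 and 0.159 CPM in control caps. Every Neurog2 and mutant library thus lay above every Ptf1a and control library. The S copy had the same order, with 23.8 and 89.4 CPM in Neurog2 caps, 40.2 and 10.01 CPM in mutant caps and 0.584 and 0.351 CPM in Ptf1a caps, against 0.132 and 0.319 CPM in control caps. Replicates of Neurog2 and of the mutant differed widely, by 4.47 and 3.93 times for tlx3.L.

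**Figure D1:**
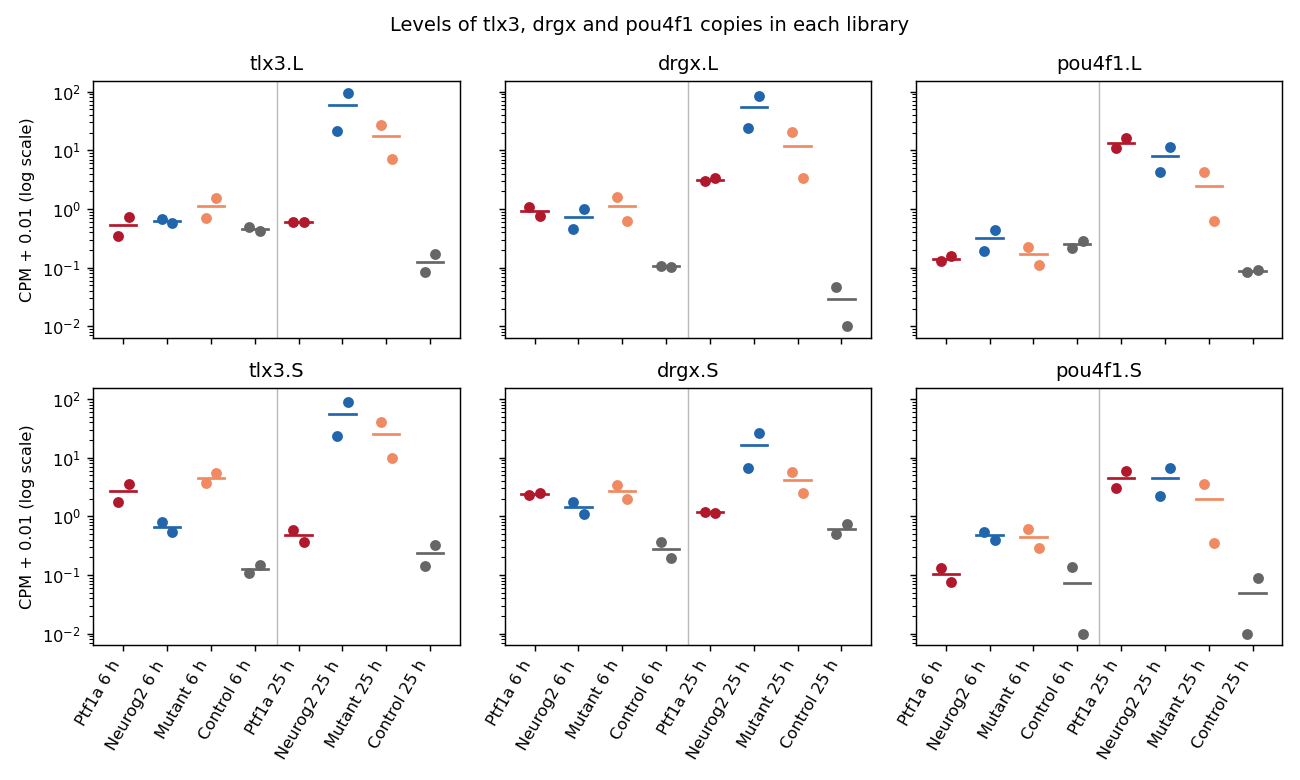
CPM + 0.01 of each of the 6 copies (log axis) in each library, by injected mRNA and time; points are libraries and bars the mean of the 2 libraries of a group. At 25 h the tlx3 copies lie above 7 CPM in every Neurog2 and mutant library and below 0.6 CPM in every Ptf1a library, whereas pou4f1.L lies above 10 CPM in both Ptf1a libraries.

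The test of Neurog2 against control caps at 25 h called 6 of 6 copies higher, where 2.98% of the 30384 genes tested were called higher and 3.08% in either direction (edgeR quasi-likelihood F-test with Benjamini-Hochberg adjustment, used for every adjusted p here). For tlx3.L the log2 fold change was 9.09 ± 1.05 (SE, adjusted p = 0.00175) and for tlx3.S it was 8.10 ± 0.97 (adjusted p = 0.00197). The copies of drgx followed, with drgx.S at 6.61 and 26.1 CPM in Neurog2 caps against 0.489 and 0.717 CPM in control caps (log2 fold change 4.78 ± 0.71, adjusted p = 0.00547). The L copy of drgx stood at 24.0 and 85.0 CPM in Neurog2 caps against 2 counts in all in the control libraries. From the pooled counts this is a ratio of 1996 with a 95% counting interval of 552 to 16487 (adjusted p = 0.00197). Both Neurog2 libraries lay above both control libraries for each of these copies. Without either of the 2 control libraries of 25 h none of the 6 calls remained, with adjusted p of up to 0.072 for the tlx3 copies and drgx.L, 0.0979 for drgx.S, 0.105 for pou4f1.L and 0.282 for pou4f1.S. The call of pou4f1.S was also lost without Neurog2 replicate 2 and with the 25 h libraries fitted alone (adjusted p = 0.088). Over all genes tested the number called higher also fell in some fits without 1 library and rose in others. A call lost in such a fit is thus not particular to these copies.

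The POU factor gene pou4f1.L reached 4.33 and 11.5 CPM in Neurog2 caps, against 0.0752 and 0.0797 CPM in control caps (log2 fold change 6.66 ± 1.02, adjusted p = 0.00629). Its S copy reached 2.20 and 6.78 CPM in Neurog2 caps against 2 counts in all in the control libraries, a ratio of 165 (95% counting interval 45.5 to 1371, adjusted p = 0.0316). These counting intervals come from counts pooled over the libraries of a group, and reads carried no molecular identifiers. They cover counting error only and leave out the spread between libraries. Because 62.1 to 74.3% of the non-zero counts of a library were even, both mates of a read pair may have been counted, and the intervals may be too narrow.

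The mutant raised 4 of the 6 copies at 25 h, where 0.803% of all genes tested were called higher and 0.836% in either direction. These were tlx3.L (log2 fold change 7.33 ± 1.005, adjusted p = 0.00828), tlx3.S (6.92 ± 0.94, adjusted p = 0.00779), drgx.L and pou4f1.L (4.93 ± 0.98, adjusted p = 0.0439). The copy drgx.L stood at 20.5 and 3.41 CPM in mutant caps, a pooled ratio to the control libraries of 369 (95% counting interval 101.9 to 3053, adjusted p = 0.0114). In mutant replicate 1 pou4f1.L stood at 4.23 CPM and in replicate 2 at 0.622 CPM, and both lay above the control libraries. The other copies, drgx.S at 5.67 and 2.52 CPM (adjusted p = 0.0879) and pou4f1.S at 3.59 and 0.344 CPM (adjusted p = 0.13), did not pass. Without either control library of 25 h the 4 calls were lost, with adjusted p of up to 0.2 for tlx3.L and drgx.L, 0.195 for tlx3.S and 0.394 for pou4f1.L, and that of pou4f1.L also without mutant replicate 1. With the 8 libraries of 25 h fitted alone the 4 calls were lost too, at adjusted p = 0.107 for both tlx3 copies, 0.112 for drgx.L and 0.179 for pou4f1.L. The call of pou4f1.L was also lost with DESeq2 size factors (adjusted p = 0.0514) and with counts halved (0.0535). With the mutant, too, the number of all genes called higher fell in some fits without 1 library and rose in others.

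With Ptf1a at 25 h both pou4f1 copies and drgx.L rose, 3 of 6, where 11.9% of all genes tested were called higher and 20.5% in either direction. In Ptf1a caps pou4f1.L stood at 10.9 and 16.2 CPM, against 0.0752 and 0.0797 CPM in control caps (log2 fold change 7.43 ± 1.04, adjusted p = 0.000604). The S copy stood at 3.06 and 5.92 CPM in Ptf1a caps, a pooled ratio of 185 to the control libraries (95% counting interval 51.1 to 1532, adjusted p = 0.00777), and its call was lost without control replicate 1 (adjusted p = 0.0819). For drgx.L the Ptf1a libraries held 2.98 and 3.31 CPM, a pooled ratio of 124 (95% counting interval 34.2 to 1029, adjusted p = 0.00285). The remaining copies did not pass, with log2 fold changes of 2.45 ± 0.98 for tlx3.L (adjusted p = 0.103), 1.17 ± 0.90 for tlx3.S (adjusted p = 0.409) and 0.96 ± 0.64 for drgx.S (adjusted p = 0.336). The Ptf1a libraries of these 3 copies lay above the control libraries, for tlx3.S at 0.351 against 0.319 CPM at the nearest. Such an order of 2 against 2 libraries is a description and no test.

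**Figure D2:**
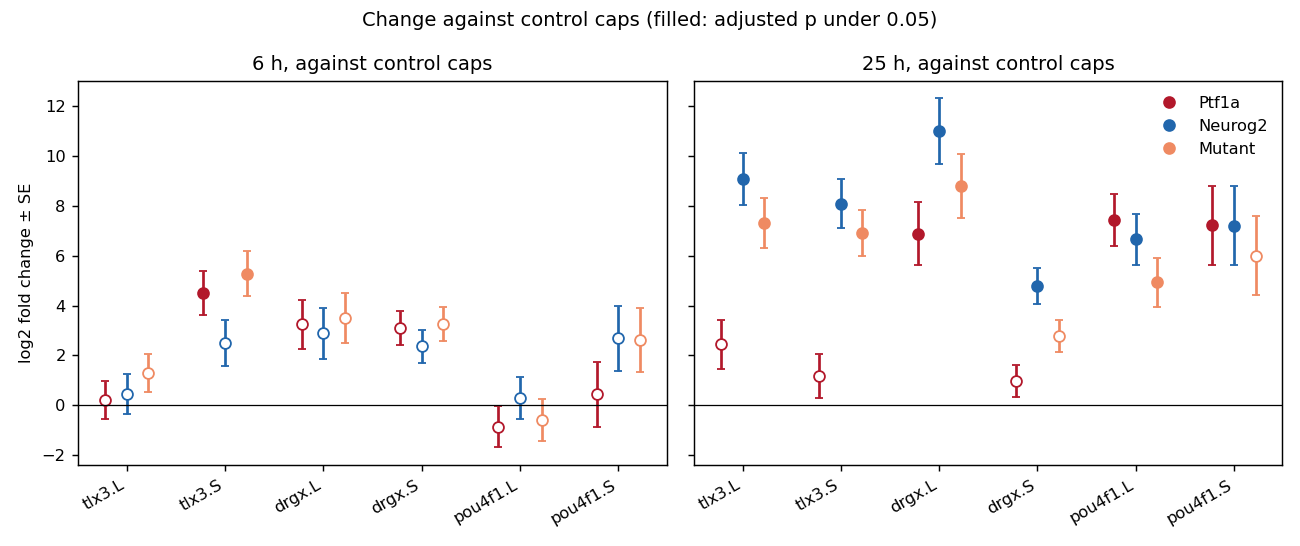
Log2 fold change against control caps of the same time (y axis, bars are SE) for each copy, with Ptf1a, Neurog2 and the mutant side by side at 6 h (left) and 25 h (right); filled points passed an adjusted p of 0.05. At 25 h the tlx3 points of Ptf1a are open at 2.45 and 1.17, while those of Neurog2 are filled at 9.09 and 8.10. Fitted values of drgx.L and pou4f1.S at 25 h rest on 2 control counts.

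Direct comparisons at 25 h tested whether the injected factors differed from each other. Ptf1a caps held less tlx3 than mutant caps, with log2 fold changes of -4.88 ± 0.82 for tlx3.L (adjusted p = 0.00542) and -5.75 ± 0.84 for tlx3.S (adjusted p = 0.00278). These were the 2 of 6 copies called, all lower with Ptf1a, where 3.81% of all genes tested were called lower and 8.22% in either direction. The S copy kept its call without any 1 of the 4 libraries, and that of tlx3.L was lost without Ptf1a replicate 1 (adjusted p = 0.0544). The drgx copies had lower levels with Ptf1a than with the mutant in every library (-1.92 ± 0.78 for drgx.L, adjusted p = 0.156, and -1.82 ± 0.62 for drgx.S, adjusted p = 0.093) but did not pass. With CPM by total counts the drgx.L libraries overlapped, at 3.11 and 2.87 CPM in Ptf1a caps and 16.5 and 2.48 CPM in mutant caps. For pou4f1 the values ran the other way without passing, at 2.499 ± 0.77 for pou4f1.L (adjusted p = 0.0667) and 1.21 ± 1.08 for pou4f1.S (adjusted p = 0.557).

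Against Neurog2 caps, Ptf1a caps held less of 4 of the 6 copies at 25 h, where 4.19% of all genes tested were called lower and 9.32% in either direction. The log2 fold changes were -6.65 ± 0.88 for tlx3.L (adjusted p = 0.00126), -6.93 ± 0.88 for tlx3.S (adjusted p = 0.00101), -4.11 ± 0.85 for drgx.L (adjusted p = 0.0112) and -3.82 ± 0.67 for drgx.S (adjusted p = 0.00457). Both tlx3 calls and that of drgx.S remained without any 1 of the 4 libraries. The call of drgx.L was lost without Ptf1a replicate 1, without Ptf1a replicate 2 or without Neurog2 replicate 2 (adjusted p of up to 0.085). The pou4f1 copies overlapped between these groups, at 0.77 ± 0.73 for pou4f1.L (adjusted p = 0.578) and 0.00 ± 1.06 for pou4f1.S (adjusted p = 1), and a p of this size does not show equal levels.

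Mutant and Neurog2 caps were not told apart at 25 h by edgeR, with 0 of 6 copies called, where 0.00987% of all genes tested were called. At an unadjusted p under 0.05 there were 4, beside 1303 of the 30384 genes tested, and DESeq2 called 0. Estimates were all lower in mutant caps and ran from -2.19 ± 0.78 for drgx.L to -1.17 ± 0.68 for tlx3.S.

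At 6 h the only copy called against control caps by edgeR, fitted without the replicate number, was tlx3.S. It stood at 1.74 and 3.61 CPM in Ptf1a caps, 0.780 and 0.528 CPM in Neurog2 caps and 3.62 and 5.48 CPM in mutant caps, against 0.0964 and 0.140 CPM in control caps. Each injected library thus lay above both control libraries, and those of Ptf1a and the mutant above those of Neurog2. The change passed with Ptf1a (log2 fold change 4.51 ± 0.89, adjusted p = 0.0355) and with the mutant (5.28 ± 0.91, adjusted p = 0.0206), and not with Neurog2 (2.497 ± 0.91, adjusted p = 0.909). It was 1 of 6 copies called with Ptf1a, where 0.885% of all genes tested were called higher and 0.902% in either direction, and 1 of 6 with the mutant, where these shares were 0.602% and 0.606%. With Neurog2 edgeR called 0 of 6, where 0.25% of genes were called, and DESeq2 also called 0. An unadjusted p under 0.05 was found for 3 copies, beside 1194 of the 30384 genes tested. The Ptf1a call was lost without Ptf1a replicate 2 or either control library (adjusted p of up to 0.372) and the mutant call without either control library (up to 0.275). The Ptf1a call also missed the threshold with DESeq2 size factors (adjusted p = 0.0521), with no filter on low counts (0.0581) and with counts halved (0.0531). With counts of tlx3.L and tlx3.S summed, neither comparison passed (adjusted p = 0.266 with Ptf1a and 0.105 with the mutant).

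The L copy of tlx3 did not follow at 6 h, with 0.342 and 0.715 CPM in Ptf1a caps, 0.660 and 0.576 CPM in Neurog2 caps and 0.697 and 1.52 CPM in mutant caps, against 0.482 and 0.420 CPM in control caps. Its log2 fold changes were 0.21 ± 0.76, 0.45 ± 0.79 and 1.28 ± 0.77 with Ptf1a, Neurog2 and the mutant, and none passed. Early values of drgx.S were 2.26 and 2.504 CPM in Ptf1a caps, 1.74 and 1.105 CPM in Neurog2 caps and 3.40 and 1.94 CPM in mutant caps, against 0.354 and 0.187 CPM in control caps. The injected libraries all lay above the control libraries. The comparison missed the threshold with Ptf1a (3.11 ± 0.67, adjusted p = 0.0574) and with the mutant (3.27 ± 0.68, adjusted p = 0.0596). With the replicate number as a block these 2 passed, at adjusted p = 0.0462 and 0.0483. For drgx.L the log2 fold change against control caps was 3.25 ± 0.996 in Ptf1a caps, 2.89 ± 1.02 in Neurog2 caps and 3.51 ± 1.001 in mutant caps, at adjusted p = 0.271, 0.867 and 0.245. Levels of pou4f1 stayed under 0.6 CPM in every library of 6 h and gave no call.

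Between injected groups at 6 h edgeR called 0 of 6 copies in each of 3 comparisons, where 0.0329% of genes were called for Ptf1a against the mutant, 0.138% for Ptf1a against Neurog2 and 0.0132% for the mutant against Neurog2. DESeq2 called 0 in each as well. At an unadjusted p under 0.05 stood 0, 1 and 1 copies, the last 2 being tlx3.S, with log2 fold changes of 2.01 ± 0.73 for Ptf1a against Neurog2 and 2.78 ± 0.75 for the mutant against Neurog2. Over the 30384 genes tested, 500, 843 and 716 had an unadjusted p under 0.05 in these 3 comparisons.

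Between the times 3 of 6 copies were called with Ptf1a, a share no higher than that of all genes. In these caps tlx3.S fell between 6 h and 25 h (log2 fold change -2.52 ± 0.74, adjusted p = 0.0115), while pou4f1.L (6.67 ± 0.94, adjusted p = 7.12e-05) and pou4f1.S (5.52 ± 1.30, adjusted p = 0.00308) rose. The share of all genes called between the times was 58.5% in Ptf1a caps, 60.4% in Neurog2 caps, 59.2% in mutant caps and 59.3% in control caps. The share called higher was 30.7% with Neurog2 and 28.6% with the mutant. With Neurog2 6 of 6 copies rose, from 3.27 ± 1.18 for pou4f1.S (adjusted p = 0.0298) to 6.57 ± 0.89 for tlx3.L (adjusted p = 4.45e-05). With the mutant 4 of 6 rose, led by tlx3.L (3.97 ± 0.78, adjusted p = 0.000845), and drgx.S (0.61 ± 0.60, adjusted p = 0.395) and pou4f1.S (2.15 ± 1.13, adjusted p = 0.119) did not pass. In control caps edgeR called 0 of 6, DESeq2 called 1 (tlx3.L, lower at 25 h), and no copy had an unadjusted edgeR p under 0.05. The fall of tlx3.S with Ptf1a was lost without Ptf1a replicate 2 of either time (adjusted p of up to 0.0874) and with the copies summed (adjusted p = 0.0688). With the mutant, the rise of tlx3.S was lost without mutant replicate 1 of either time (up to 0.185) and that of drgx.L without mutant replicate 1 of 25 h (0.0777). With Neurog2, that of pou4f1.S was lost without either Neurog2 library of 6 h or Neurog2 replicate 2 of 25 h (up to 0.173).

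Whether an effect against control caps differed between the times was tested as an interaction. It passed for pou4f1.L with Ptf1a, with a difference of 8.30 ± 1.31 on the log2 scale (adjusted p = 0.00316), where 4.47% of genes were called with a positive difference and 9.81% with either sign. It passed for tlx3.L with Neurog2 (8.64 ± 1.28, adjusted p = 0.0187), where these shares were 0.207% and 0.296%. With the mutant edgeR called 0 of 6, where 0.194% of genes were called, although 3 copies had an unadjusted p under 0.05 and DESeq2 called 3. Over the 30384 genes tested 2457 had an unadjusted p under 0.05, and DESeq2 called 264 higher and 246 lower. The pou4f1.L result kept its call without any 1 of 8 libraries, and that of tlx3.L kept it in 2 of 8 such fits, being lost without any 1 of the 6 libraries that were Neurog2 at 6 h, control at 6 h or control at 25 h (adjusted p of up to 0.158).

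Ordered by mean CPM over the 8 groups, Neurog2 and mutant caps of 25 h came first and second for both tlx3 and both drgx copies. The libraries of these groups overlapped for tlx3.L and tlx3.S and not for drgx.L and drgx.S. For pou4f1.L the order was Ptf1a at 25 h (13.6 ± 3.78 CPM), Neurog2 at 25 h (7.94 ± 5.10 CPM) and the mutant at 25 h (2.42 ± 2.55 CPM), with overlap between the first pair and none between the second. For pou4f1.S these 3 groups overlapped in sequence, at 4.49 ± 3.24 CPM with Neurog2, 4.49 ± 2.03 CPM with Ptf1a and 1.97 ± 2.30 CPM with the mutant. With CPM by total counts the pou4f1.L libraries of Ptf1a, at 11.4 and 14.1 CPM, lay above those of Neurog2, at 3.499 and 9.99 CPM. On that scale the pou4f1.S libraries of Ptf1a also lay above those of the mutant. Per kilobase of exon, Ptf1a caps of 25 h held 4.37 ± 1.22 CPM of pou4f1.L and 0.237 ± 0.00244 CPM of tlx3.L. In Neurog2 caps these levels were 2.55 ± 1.64 and 23.8 ± 21.4 CPM per kilobase.

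In Neurog2 and mutant caps the spread between replicates of 25 h moved with neuronal transcripts. The 47 copies of the pan-neuronal list summed to 1306 and 1292 CPM in Ptf1a caps, 1106 and 3572 CPM in Neurog2 caps and 1597 and 591 CPM in mutant caps, against 100.9 and 117 CPM in control caps. The library with more pan-neuronal transcript also had more of each of the 6 copies with Neurog2 and with the mutant. With Ptf1a the sums were nearly equal, although pou4f1.L stood at 10.9 and 16.2 CPM. In bulk samples a difference in the number of neurons and one in RNA per neuron cannot be told apart. Each copy was therefore also given per 1000 CPM of the pan-neuronal sum, a measure chosen after the replicate values were seen and given with no test.

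On that scale tlx3.L stood at 0.447 and 0.458 in Ptf1a caps, 19.5 and 27.0 in Neurog2 caps and 17.3 and 11.9 in mutant caps, against 0.745 and 1.36 in control caps. The spread between Neurog2 replicates was smaller than in CPM, and both Ptf1a libraries lay below the control libraries. For pou4f1.L the Ptf1a libraries were the highest, with 8.34 and 12.6 in Ptf1a caps, 3.92 and 3.23 in Neurog2 caps and 2.65 and 1.05 in mutant caps, against 0.745 and 0.680 in control caps. For drgx.S the ratio was 0.894 and 0.882 in Ptf1a caps, 5.98 and 7.32 in Neurog2 caps and 3.55 and 4.26 in mutant caps, against 4.84 and 6.12 in control caps, so that Neurog2 libraries overlapped the control libraries. Control ratios rest on few counts of each copy, 44 for drgx.S and 2 to 15 for the others. Within the pan-neuronal sum, elavl3 gave 1.47 of 100.9 and 2.03 of 117 CPM in control caps. In Ptf1a caps it gave 89.4 of 1306 and 74.8 of 1292 CPM, and in mutant replicate 2 it gave 16.3 of 591 CPM. How much of the control sum came from neurons was not tested, so a control ratio is not a level per neuron.

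**Figure D3:**
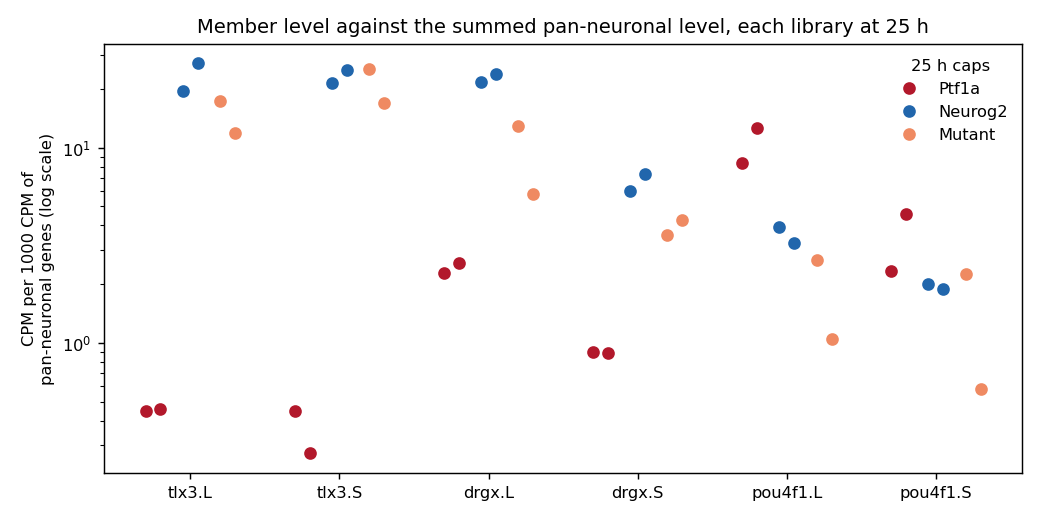
CPM of each copy per 1000 CPM of the summed pan-neuronal list (log axis) in each library of 25 h; points are libraries. Both Ptf1a libraries lie below all Neurog2 and mutant libraries for tlx3 and drgx, and above them for both pou4f1 copies. For pou4f1.S the nearest points are 2.34 in Ptf1a replicate 1 and 2.25 in mutant replicate 1.

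The share of the L copy was taken over the counts of both copies. The L copy gave 16.5% of tlx3 counts in Ptf1a caps of 6 h (95% exact interval 14.3 to 18.9), 47.9% in Neurog2 caps (39.4 to 56.4) and 19.3% in mutant caps (16.9 to 21.8), against 80.0% in control caps (67.7 to 89.2). At 25 h the shares were 56.8%, 50.9% and 40.9% with Ptf1a, Neurog2 and the mutant, against 34.8% in control caps on 23 counts. For drgx the L share was 29.3%, 30.8% and 29.5% with Ptf1a, Neurog2 and the mutant at 6 h, and 73.4%, 77.0% and 72.2% at 25 h. These shares of counts do not allow for the annotated exon lengths, 8450 bp for drgx.L and 2494 bp for drgx.S. Per kilobase they were 10.9%, 11.6% and 11.0% at 6 h and 44.9%, 49.7% and 43.4% at 25 h. The 30.8% of Neurog2 pools libraries at 20.5% and 47.7%. Control caps had 25.0% on 40 counts at 6 h and 4.35% on 46 counts at 25 h, the last from libraries at 7.14% and 0%. The L share of pou4f1 at 25 h was 74.8% in Ptf1a caps, 64.0% in Neurog2 caps and 56.0% in mutant caps. Differences between copies were not tested, and how the authors treated reads that fit both copies is not given in the sources used here.

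**Figure D4:**
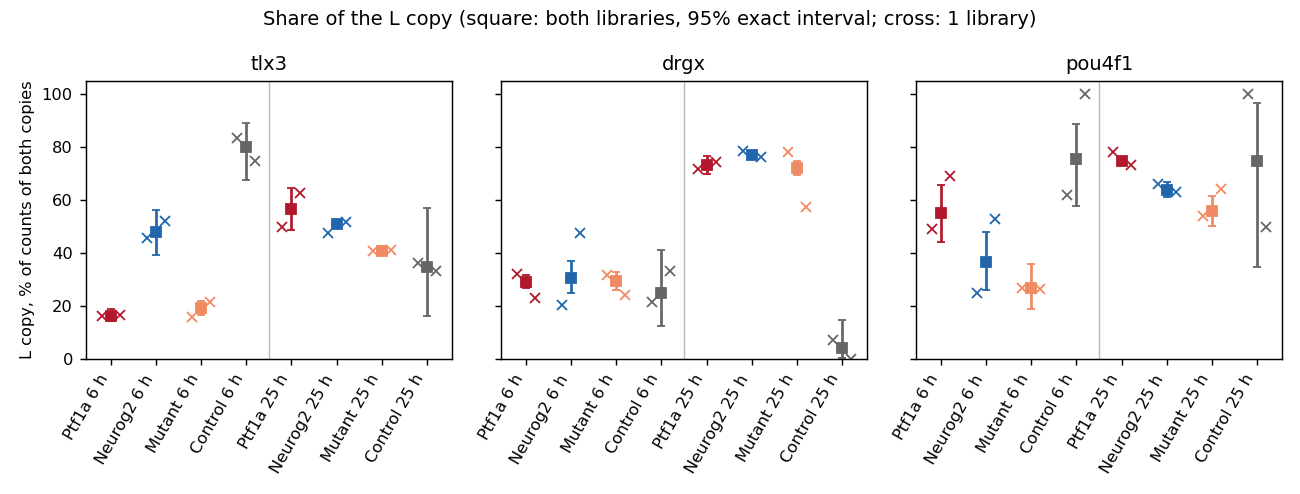
Percentage of the counts of both copies that fell on the L copy for tlx3, drgx and pou4f1 in each group; squares pool both libraries with their 95% exact interval, crosses are single libraries. The tlx3 share is below 25% in Ptf1a and mutant caps of 6 h and between 40 and 60% in the pooled injected groups of 25 h. Shares are of counts and do not allow for the length of each copy.

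Across the 8 group means of log2 CPM, patterns were most alike between tlx3.S and drgx.S (Pearson r = 0.958), pou4f1.L and pou4f1.S (0.911), tlx3.L and drgx.L (0.903) and tlx3.L and tlx3.S (0.902). They were least alike between tlx3.S and pou4f1.L (0.408). These values describe 8 means that share libraries, depth and the difference between the times. Among all other tested genes with an L or S symbol, the highest correlation was with nefl.L for tlx3.L (0.979), clic6.S for tlx3.S (0.966), hspa12b.L for drgx.S (0.935), srrm3.L for pou4f1.L (0.991) and kcnb2.S for pou4f1.S (0.982). Each r is the highest among many genes and does not measure the size of a change. In Ptf1a, Neurog2, mutant and control caps of 25 h nefl.L averaged 1.52, 2.94, 2.38 and 0.945 CPM. In the same order clic6.S averaged 0.132, 0.418, 0.396 and 0.117 CPM and hspa12b.L 0.332, 1.01, 0.736 and 0.159 CPM. The values were 6.77, 7.63, 2.31 and 0.136 CPM for srrm3.L and 0.679, 1.28, 0.535 and 0.0376 CPM for kcnb2.S. The proneural gene neurog1.L came second for pou4f1.L (0.991), at 16.7, 12.3 and 2.84 CPM in Ptf1a, Neurog2 and mutant caps of 25 h and 0 counts in control caps.

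Other genes of excitatory and sensory neurons were followed as lists. Over all genes tested at 25 h, 11.9% were called higher and 8.62% lower with Ptf1a. These shares were 2.98% and 0.105% with Neurog2 and 0.803% and 0.0329% with the mutant. They stand beside the counts of each list below. The list of excitatory dorsal neuron factors also holds neurogenin, neurod and ebf genes, and its ebf2 and tfap2b stand in other lists too. Its counts therefore do not measure excitatory identity alone. Of 44 tested copies of excitatory dorsal neuron factors, a list that includes the injected neurog2, 27 rose in Ptf1a caps of 25 h, 20 in Neurog2 caps and 7 in mutant caps. EdgeR called 0 of them lower in each, where 2, 0 and 1 were lower at an unadjusted p under 0.05 and DESeq2 called 1, 0 and 0 lower. Without control replicate 1 of 25 h the counts were 15, 1 and 0, without control replicate 2 they were 20, 2 and 0, without Neurog2 replicate 2 that of Neurog2 was 8, and without mutant replicate 1 or 2 that of the mutant was 1 or 15. Their median log2 fold changes were 4.84, 3.93 and 2.12, beside 0.08, -0.02 and 0.01 over all genes tested. The proneural gene neurog1.L was at least 456-fold higher in Ptf1a caps, at least 297-fold in Neurog2 caps and at least 59.3-fold in mutant caps, against a floor of 3 counts over both control libraries. Among 47 sensory neuron genes 16 rose and 2 fell with Ptf1a, 9 rose with Neurog2 and 3 with the mutant, and without control replicate 1 the counts that rose were 6, 1 and 0. Among those called with each mRNA was prph.S, which encodes the intermediate filament peripherin, at 352 ± 74.1, 368 ± 313 and 182 ± 135 CPM in Ptf1a, Neurog2 and mutant caps, against 0.561 ± 0.00436 CPM in control caps.

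Of 23 tested glutamate transport and receptor genes 7 rose in Ptf1a caps, 2 in Neurog2 caps and 0 in mutant caps by edgeR, where 3 had an unadjusted p under 0.05 and higher levels and DESeq2 called 1. Without 1 library the count fell to 3 with Ptf1a (without Ptf1a replicate 1, Ptf1a replicate 2 or control replicate 2) or 1 (without control replicate 1), and with Neurog2 it was 0 without either control library. The 2 with Neurog2 were the vesicular glutamate transporter copies slc17a7.L (7.42 ± 1.14 as log2 fold change, adjusted p = 0.00665, at 47.1 ± 48.1 CPM against 0.258 ± 0.140 CPM in control caps) and slc17a7.S (6.42 ± 1.02, adjusted p = 0.00689), and both calls were thus lost without either control library. Chosen after their values were seen, the same copies were lower in Ptf1a than in Neurog2 caps (-4.37 ± 0.96, adjusted p = 0.0149, and -4.95 ± 0.93, adjusted p = 0.00664). They were the only 2 of the 23 genes called lower in this comparison, where 4.19% of all genes tested were called lower and 5.13% higher. EdgeR called 0 of the 23 higher, and 3 were higher at an unadjusted p under 0.05. The median log2 fold change of the list was 0.117. In Ptf1a caps slc17a7.L stood at 2.27 ± 0.125 CPM. The transporter gene slc17a6, also outside the rule for naming genes, stayed below 0.5 CPM in every library. The separately annotated pou4f1.2.L, chosen likewise, averaged 2.52 ± 0.609 CPM in Ptf1a caps of 25 h and 47.5 ± 45.2 CPM in Neurog2 caps (log2 fold change -4.23 ± 0.997, adjusted p = 0.0211). The S copy, pou4f1.2.S, averaged 5.08 ± 0.819 CPM in Ptf1a caps and 18.1 ± 19.2 CPM in Neurog2 caps. Its libraries overlapped, at 4.50 and 5.66 CPM with Ptf1a against 4.59 and 31.7 CPM with Neurog2.

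Inhibitory genes were set beside these, since Ptf1a directs that fate. Of 36 tested inhibitory fate factors, a list that includes the injected ptf1a, 23 rose and 2 fell with Ptf1a at 25 h, 2 rose with Neurog2 and 2 with the mutant. Of 19 inhibitory transmitter genes 10 rose and 2 fell with Ptf1a, 1 rose with Neurog2 and 1 with the mutant. Over all genes tested, 11.9% were called higher and 8.62% lower with Ptf1a. The share called higher was 2.98% with Neurog2 and 0.803% with the mutant. In the mouse Prdm13 acts downstream of Ptf1a and is known to repress genes of the glutamatergic fate. Its copy prdm13.L stood at 19.9 ± 8.49 CPM in Ptf1a caps, 0.469 ± 0.0775 CPM in Neurog2 caps and 0.121 ± 0.171 CPM in mutant caps, against 0.0188 ± 0.0266 CPM in control caps. In Ptf1a caps of 6 h prdm13.L stood at 20.3 ± 8.94 CPM. The other copy, prdm13.S, stood at 76.4 ± 27.1 CPM in Ptf1a caps of 6 h and 31.2 ± 9.83 CPM in those of 25 h. At 6 h prdm13.S was at 1.61 ± 0.399 CPM in mutant caps, against 0.0394 ± 0.0103 CPM in control caps. Whether prdm13 bears on the levels of tlx3, drgx or pou4f1 was not tested.

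Markers of neurons and of other cell types were also counted at 25 h. Over all genes tested, 11.9% were called higher and 8.62% lower with Ptf1a. These shares were 2.98% and 0.105% with Neurog2 and 0.803% and 0.0329% with the mutant. Of 47 pan-neuronal genes 33 rose in Ptf1a caps, 31 in Neurog2 caps and 22 in mutant caps, and without control replicate 1 the counts were 29, 3 and 1. Of 28 epidermis genes 2 rose and 9 fell with Ptf1a and 1 rose with the mutant. With Neurog2 edgeR called 0, 3 had an unadjusted p under 0.05 and DESeq2 called 1. Over the 30384 genes tested, 3685 had an unadjusted p under 0.05 with Neurog2 and 2751 with the mutant, in either direction. The list summed to 60622 and 80146 CPM in Ptf1a caps, 104757 and 100593 CPM in Neurog2 caps and 103547 and 139793 CPM in mutant caps, against 125678 and 141696 CPM in control caps. Of 18 multiciliated cell genes 10 fell with Ptf1a, and edgeR called 0 with Neurog2 and 0 with the mutant. Lower levels at an unadjusted p under 0.05 were found for 4 with Neurog2 and 8 with the mutant, and DESeq2 called 2 and 3 lower. Of 23 neural crest genes 16 rose and 1 fell with Ptf1a, and 2 rose with Neurog2. With the mutant edgeR called 0, 6 were higher at an unadjusted p under 0.05 and DESeq2 called 2. Of 25 placode genes 15 rose and 4 fell with Ptf1a, 2 rose with Neurog2 and 1 with the mutant. Several genes stand in more than 1 list, and the part of these cell types in the levels of tlx3, drgx and pou4f1 was not tested. At 6 h the number of copies called in any of the 10 lists was at most 5 in Ptf1a caps, 2 in Neurog2 caps and 3 in mutant caps. The 5 and the 3 were of 36 inhibitory fate factors, a list that includes the injected ptf1a. With Neurog2 the lists with 2 were the 18 multiciliated cell genes and the 23 neural crest genes. In Ptf1a caps 4 of 23 neural crest genes and 4 of 25 placode genes were also called higher. Over all genes tested 0.902%, 0.25% and 0.606% were called in these comparisons of 6 h.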

How the data were processed

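RNA-seq libraries of animal caps were deposited as counts of reads per gene, which the authors made with CASAVA 1.8, STAR 2.5, featureCounts and DESeq2 1.8, per the submitters' processing notes. Genes followed Xenopus laevis build 9.1. Use of strand and of reads matching several places is not given in the sources used here. Low counts of 1 to 20 were even in 80.5 to 85.6% of cases.

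Groups were taken from the labels. Counts were fitted in R 4.3.3 with edgeR 4.0.16 (limma 3.58.1): TMM scaling, 30384 genes kept by expression, a mean for each of the 8 groups of 2 libraries, robust quasi-likelihood F-tests with 8 residual degrees of freedom, and Benjamini-Hochberg adjustment over all genes within each of 19 comparisons. Genes were called at an adjusted p under 0.05. The share of all genes whose libraries did not overlap between groups was not counted, so statements on such an order describe the libraries only. CPM used TMM-scaled totals. Fitted fold changes of copies with 2 control counts depend on the prior count of 0.125, so pooled ratios with exact 95% intervals were given. Library totals were 31436437 to 228346016 counts, and replicates correlated at 0.959 to 0.971. Same-numbered libraries deviated together, with correlations of 0.125 to 0.697 over all 28 pairs of groups, which meets the rule set for pairing. The values were 0.617 to 0.697 among groups of 6 h, 0.201 to 0.370 among groups of 25 h and 0.125 to 0.239 between the times. The tests as reported nevertheless carry no term for the replicate number, and the fit with it as a block is an alternative.

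Alternatives were DESeq2 1.42.0, its size factors, no filter, the replicate block, each time alone, summed tlx3 copies, CPM by total counts, each library left out, and halved counts. The members and gene lists were chosen with earlier results of these data known. Named genes were the members, ptf1a and neurog2, up to 3 called copies per list and mRNA at 25 h with the largest change and libraries that did not overlap, and the 5 genes most like each member in pattern. Those named outside this rule were chosen after their values were seen. They were slc17a6, both pou4f1.2 copies, elavl3, rnf219.L and admp2.S as the called neighbours, and the comparison of slc17a7 between Ptf1a and Neurog2. The copy prdm13.S was given to complete the pair with prdm13.L. The gene most like drgx.L in pattern is not reported here.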

Additional observations from a re-analysis of the deposited data

Results flagged for a closer look

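The effect of an mRNA against control caps differed between 25 h and 6 h, by a test of the difference itself, for 2 copies. For pou4f1.L with Ptf1a the difference was 8.30 on the log2 scale (SE 1.31, adjusted p = 0.00316, edgeR), with both Ptf1a libraries above both control libraries at 25 h and below them at 6 h. For tlx3.L with Neurog2 the difference was 8.64 (SE 1.28, adjusted p = 0.0187, edgeR), with both Neurog2 libraries above both control libraries at each time. Over all genes tested, 4.47% were called with a positive difference with Ptf1a and 0.207% with Neurog2. The tlx3.L call was lost in most fits without 1 library, as given above. The order of the libraries is a description and no test.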

How the results depend on the processing

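The comparisons of tlx3, drgx and pou4f1 were refitted under each alternative, and at settings other than leaving out a library 13 calls were lost, 25 gained and 9 uncalled estimates turned sign. The cause of these changes was not tested. With the DESeq2 Wald test, calls were gained at 3.11 in Ptf1a vs Control 6 h (drgx.L), 2.98 in Ptf1a vs Control 6 h (drgx.S), 3.46 in Mutant vs Control 6 h (drgx.L), 3.21 in Mutant vs Control 6 h (drgx.S), 2.31 in Ptf1a vs Control 25 h (tlx3.L), 2.72 in Mutant vs Control 25 h (drgx.S), 5.94 in Mutant vs Control 25 h (pou4f1.S), -1.88 in Ptf1a vs Mutant 25 h (drgx.S), 2.43 in Ptf1a vs Mutant 25 h (pou4f1.L), 1.902 in Ptf1a 25 h vs 6 h (drgx.L), -1.96 in Control 25 h vs 6 h (tlx3.L), -3.37 in Ptf1a effect 25 h minus 6 h (tlx3.S), 6.74 in Ptf1a effect 25 h minus 6 h (pou4f1.S), 5.51 in Neurog2 effect 25 h minus 6 h (tlx3.S), 8.14 in Neurog2 effect 25 h minus 6 h (drgx.L), 6.32 in Neurog2 effect 25 h minus 6 h (pou4f1.L), 6.03 in Mutant effect 25 h minus 6 h (tlx3.L), 5.44 in Mutant effect 25 h minus 6 h (drgx.L), 5.59 in Mutant effect 25 h minus 6 h (pou4f1.L), and the sign turned, uncalled both ways, at -0.0551 in Ptf1a vs Neurog2 25 h (pou4f1.S). With DESeq2 size factors, calls were lost at log2 fold changes of 4.37 in Ptf1a vs Control 6 h (tlx3.S), 4.88 in Mutant vs Control 25 h (pou4f1.L), and the sign turned, uncalled both ways, at -0.0538 in Ptf1a vs Neurog2 25 h (pou4f1.S). With no filter on low counts, calls were lost at log2 fold changes of 4.56 in Ptf1a vs Control 6 h (tlx3.S), and calls were gained at 3.17 in Ptf1a vs Control 6 h (drgx.S), 3.295 in Mutant vs Control 6 h (drgx.S), 6.35 in Neurog2 effect 25 h minus 6 h (pou4f1.L). With the replicate number as a block, calls were gained at 3.12 in Ptf1a vs Control 6 h (drgx.S), 3.27 in Mutant vs Control 6 h (drgx.S), and the sign turned, uncalled both ways, at -0.0364 in Ptf1a vs Neurog2 25 h (pou4f1.S). With counts halved (an alternative chosen after seeing the data), calls were lost at log2 fold changes of 4.48 in Ptf1a vs Control 6 h (tlx3.S), 4.89 in Mutant vs Control 25 h (pou4f1.L), and the sign turned, uncalled both ways, at -0.00336 in Ptf1a vs Neurog2 25 h (pou4f1.S). With tlx3.L and tlx3.S summed, calls were lost at log2 fold changes of 2.48 in Ptf1a vs Control 6 h (tlx3.S), 3.31 in Mutant vs Control 6 h (tlx3.S), -1.600 in Ptf1a 25 h vs 6 h (tlx3.S), and calls were gained at 7.35 in Neurog2 effect 25 h minus 6 h (tlx3.S), and the sign turned, uncalled both ways, at 1.32 in Ptf1a vs Neurog2 6 h (tlx3.L), -1.600 in Ptf1a 25 h vs 6 h (tlx3.L), -0.85 in Control 25 h vs 6 h (tlx3.S), -0.74 in Ptf1a effect 25 h minus 6 h (tlx3.L). With the 8 libraries of 25 h alone, calls were lost at log2 fold changes of 7.28 in Neurog2 vs Control 25 h (pou4f1.S), 7.35 in Mutant vs Control 25 h (tlx3.L), 6.96 in Mutant vs Control 25 h (tlx3.S), 8.77 in Mutant vs Control 25 h (drgx.L), 4.93 in Mutant vs Control 25 h (pou4f1.L), and the sign turned, uncalled both ways, at -0.0338 in Ptf1a vs Neurog2 25 h (pou4f1.S). The block with the replicate number changed no other call among the 6 copies.

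Leaving out 1 library at a time, which leaves a group with a single library assumed to vary like the other groups, 46 fits lost a call, 10 gained one and 22 turned the sign of an estimate; where any did, the log2 fold changes spanned the following ranges. For Ptf1a vs Control 6 h they were -0.38 to 0.68 (tlx3.L), 3.91 to 4.96 (tlx3.S), -0.39 to 5.895 (pou4f1.S). For Neurog2 vs Control 6 h they were -0.42 to 0.83 (pou4f1.L). For Mutant vs Control 6 h they were 4.95 to 5.55 (tlx3.S), 2.82 to 3.83 (drgx.S). For Ptf1a vs Control 25 h they were 5.79 to 11.44 (pou4f1.S). For Neurog2 vs Control 25 h they were 7.63 to 9.798 (tlx3.L), 6.83 to 8.75 (tlx3.S), 9.84 to 15.01 (drgx.L), 3.47 to 5.45 (drgx.S), 5.79 to 7.197 (pou4f1.L), 5.79 to 11.44 (pou4f1.S). For Mutant vs Control 25 h they were 6.03 to 8.002 (tlx3.L), 5.59 to 7.605 (tlx3.S), 7.01 to 12.81 (drgx.L), 2.09 to 3.25 (drgx.S), 2.99 to 5.75 (pou4f1.L), 3.52 to 10.24 (pou4f1.S). For Ptf1a vs Mutant 6 h they were -0.76 to 0.57 (drgx.L), -0.496 to 0.31 (drgx.S), -0.71 to 0.42 (pou4f1.L). For Ptf1a vs Neurog2 6 h they were -0.84 to 0.22 (tlx3.L), -0.12 to 1.04 (drgx.L). For Mutant vs Neurog2 6 h they were -0.198 to 1.29 (drgx.L), -0.76 to 0.36 (pou4f1.S). For Ptf1a vs Mutant 25 h they were -5.55 to -3.58 (tlx3.L), 1.68 to 4.44 (pou4f1.L). For Ptf1a vs Neurog2 25 h they were -4.75 to -2.93 (drgx.L), -0.59 to 1.03 (pou4f1.S). For Mutant vs Neurog2 25 h they were -2.49 to 0.0744 (tlx3.S). For Ptf1a 25 h vs 6 h they were -0.302 to 0.76 (tlx3.L), -2.98 to -1.93 (tlx3.S). For Neurog2 25 h vs 6 h they were 2.24 to 3.86 (pou4f1.S). For Mutant 25 h vs 6 h they were 1.13 to 3.14 (tlx3.S), 1.62 to 4.25 (drgx.L), -0.0853 to 1.08 (drgx.S), -0.35 to 3.03 (pou4f1.S). For Control 25 h vs 6 h they were -5.48 to 4.17 (pou4f1.S). For Neurog2 effect 25 h minus 6 h they were 7.17 to 9.34 (tlx3.L), 4.34 to 6.25 (tlx3.S), 6.94 to 12.11 (drgx.L), 5.49 to 7.08 (pou4f1.L), -0.91 to 8.74 (pou4f1.S). For Mutant effect 25 h minus 6 h they were 4.74 to 6.72 (tlx3.L), 3.57 to 6.33 (pou4f1.L), -2.03 to 7.63 (pou4f1.S).

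Counts of the 6 copies called higher ranged over 0 to 6 with the mutant at 25 h (4 as reported) and 5 to 6 with Neurog2 at 25 h (6 as reported), and over 0 to 6 for both without 1 library. At 6 h they ranged over 0 to 3 with Ptf1a and 1 to 3 with the mutant (1 as reported for each). For the interactions DESeq2 called 4 higher with Neurog2 (1 as reported) and 3 with the mutant (0 as reported). Over all genes DESeq2 called 611 higher with Neurog2 (63 as reported) and 264 with the mutant (22 as reported). Among the gene lists the counts called higher at 25 h ranged over 7 to 23 for excitatory factors with Neurog2 (20 as reported, and 1 to 21 without 1 library), 0 to 17 with the mutant (7, and 0 to 15) and 25 to 31 with Ptf1a (27, and 15 to 23). For pan-neuronal genes they ranged over 22 to 38 with Neurog2 (31, and 3 to 34 without 1 library) and 2 to 30 with the mutant (22, and 1 to 26). Sensory neuron genes ranged over 16 to 20 with Ptf1a (16, and 6 to 16 without 1 library), 3 to 13 with Neurog2 (9, and 1 to 12) and 0 to 7 with the mutant (3, and 0 to 4). Epidermis genes lower with Ptf1a were 14 by DESeq2 (9 as reported), and all other list counts that moved by over 1.5 times were within 0 to 15. Over all genes the count called higher with Neurog2 at 25 h was 905, and that called lower was 32. At the settings other than leaving out a library these counts were 240 to 1501 and 0 to 335. With the mutant at 25 h 244 were called higher, and 7 to 758 at those settings. With Ptf1a at 25 h 2619 were called lower, and 2292 to 4325 at those settings. Fits without 1 library reached below these ranges for genes higher with Neurog2 or the mutant and for genes lower with Ptf1a. With CPM by total counts in place of TMM scaling, 11 of 48 group levels moved by more than their SD. They became 0.775, 0.591 and 0.561 CPM for tlx3.L in Neurog2 and control caps of 6 h and Ptf1a caps of 25 h, 0.156 CPM for tlx3.S and 0.1247 CPM for drgx.L in control caps of 6 h, 2.71, 1.103 and 0.438 CPM for drgx.S in Ptf1a caps of 6 h and 25 h and control caps of 25 h, 0.323 and 0.0563 CPM for pou4f1.L in control caps of 6 h and 25 h, and 0.577 CPM for pou4f1.S in Neurog2 caps of 6 h. In control caps a copy had 2 to 48 counts in 2 libraries, which limits the precision of each comparison with them.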
